A study of Mus musculus with 6 samples.

Results

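The 10 genes described here encode the ligands by which a dendritic cell (DC) raises or restrains a T cell response: Cd80, Cd86, Cd83, Cd40, Tnfsf4, Tnfsf9 and Icosl on the costimulatory side, and Cd274, Pdcd1lg2 and Cd200 on the inhibitory side. They were chosen by name, for their function and with earlier results of these data known. They were 10 of the 31053 genes listed for the DC cultures. All 10 were listed in all 6 libraries. The libraries hold single-cell RNA counts, 1 library per condition.

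The cultures were bone marrow-derived DCs from wild-type C57/BL6 mice, grown with GM-CSF. Untreated DCs received no agent, VD3 stimulated DCs received vitamin D3 (calcitriol) at 1e-06 M for 24 h at day 7 of culture, and Ndrg2-KO DCs were nucleofected with Cas9 protein and 3 guide RNAs against Ndrg2. The untreated culture is not described as nucleofected, so that loss of Ndrg2 and nucleofection cannot be told apart in the cultures. The knockout was made in a bulk culture and not in a clone, so that unedited cells can remain. The wounds were splinted full-thickness skin wounds of wild-type C57BL6 mice aged 6 weeks, 5 mice per group in the study, covered with hydrogels that carried control DCs, Ndrg2-KO DCs or no cells (blank) and explanted on day 10. The labels call the control DCs of the wounds untreated, while the study's methods describe control DCs nucleofected with non-targeting guides. A wound library holds the cells of the wound together with any seeded DCs that remained, and these cannot be told apart by origin.

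A T cell that meets its antigen needs a further signal to respond. CD80 and CD86 give it through CD28 and are bound more tightly by the inhibitory receptor CTLA-4. CD40 receives the CD40 ligand of helper T cells and drives DC maturation through NF-kB, and CD83 marks mature DCs and holds MHC class II and CD86 at the surface. OX40 ligand (Tnfsf4), 4-1BB ligand (Tnfsf9) and ICOS ligand (Icosl) sustain T cells that are already activated. PD-L1 (Cd274) and PD-L2 (Pdcd1lg2) engage the checkpoint receptor PD-1, and CD200 engages CD200R1 on myeloid cells. DCs treated with vitamin D3 are a widely used form of tolerogenic DC, in which low costimulation together with PD-L1 is a known feature.

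In GRCm38 (GENCODE M21), 3 members lie on chromosome 16, namely Cd80 (ENSMUSG00000075122, chr16:38455561-38496335, plus strand), Cd86 (ENSMUSG00000022901, chr16:36603869-36666081, minus strand) and Cd200 (ENSMUSG00000022661, chr16:45382135-45409053, minus strand). Both PD-1 ligands lie side by side on chromosome 19, Cd274 (ENSMUSG00000016496, chr19:29367455-29388095, plus strand) and Pdcd1lg2 (ENSMUSG00000016498, chr19:29410919-29471161, plus strand), with 22823 bases between them. The others are Cd83 (ENSMUSG00000015396, chr13:43784775-43803132, plus strand), Cd40 (ENSMUSG00000017652, chr2:165055627-165072948, plus strand), Tnfsf4 (ENSMUSG00000026700, chr1:161395409-161418410, plus strand), Tnfsf9 (ENSMUSG00000035678, chr17:57105325-57107757, plus strand) and Icosl (ENSMUSG00000000732, chr10:78069302-78083913, plus strand). RefSeq promoters (GRCm38.p6, 250 bases before to 50 bases after the start site, which is base 251) were at hand for 5 of the 10. Those of Cd80, Cd274 and Pdcd1lg2 are shown because these 3 genes give the clearest contrasts between the libraries described below. Capitals mark a match to 1 of 5 motifs searched on both strands. The motifs were the kappa B consensus (in 8.46% of 32851 mouse promoters of the same length), the AP-1 motif TGANTCA (7.81%), the interferon-stimulated response element (3.44%), the STAT motif TTCNNNGAA (8.30%) and the vitamin D receptor half-site AGGTCA (16.3%). The Cd80 window lies inside the gene as GENCODE draws it and holds the AP-1 motif at bases 209 to 215. The Pdcd1lg2 window holds the kappa B consensus at bases 7 to 16, and the Cd274 window holds none of the 5.
Cd80 promoter, chr16:38458683-38458982, plus strand: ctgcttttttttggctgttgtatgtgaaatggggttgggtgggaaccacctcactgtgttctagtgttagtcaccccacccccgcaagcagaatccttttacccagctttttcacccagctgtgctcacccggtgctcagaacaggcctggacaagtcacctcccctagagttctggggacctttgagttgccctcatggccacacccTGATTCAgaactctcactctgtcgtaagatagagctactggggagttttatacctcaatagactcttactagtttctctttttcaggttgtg
Cd274 promoter, chr19:29367188-29367487, plus strand: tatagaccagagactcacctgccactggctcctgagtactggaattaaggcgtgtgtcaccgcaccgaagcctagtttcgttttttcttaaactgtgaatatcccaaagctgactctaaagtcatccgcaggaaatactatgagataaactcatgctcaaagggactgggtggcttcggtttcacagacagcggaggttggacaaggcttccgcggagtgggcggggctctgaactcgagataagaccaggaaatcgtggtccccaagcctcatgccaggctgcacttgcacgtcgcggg
Pdcd1lg2 promoter, chr19:29410669-29410968, plus strand: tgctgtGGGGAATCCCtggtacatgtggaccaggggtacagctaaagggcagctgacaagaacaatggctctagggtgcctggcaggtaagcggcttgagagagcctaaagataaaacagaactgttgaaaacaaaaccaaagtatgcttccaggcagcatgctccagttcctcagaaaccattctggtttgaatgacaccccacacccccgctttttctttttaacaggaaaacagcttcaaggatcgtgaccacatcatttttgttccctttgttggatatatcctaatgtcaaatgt

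Cells with at least 300 genes, under 100000 UMIs (unique molecular identifiers, each standing for 1 captured transcript) and under 10% mitochondrial UMIs were kept. This left 7257 untreated, 8825 VD3 stimulated and 7969 Ndrg2-KO cells with medians of 15804, 12089 and 16316 UMIs, and, in the wounds, 1948 cells with control DCs, 5681 with Ndrg2-KO DCs and 3403 with blank hydrogels, at medians of 10795, 4415 and 5603 UMIs. Pairs of libraries shared at most 19 cell barcodes. The targeted gene Ndrg2 was counted at 4.62 CPM without treatment, 1.42 CPM after VD3 and 0.884 CPM after the knockout, where CPM stands for UMIs of a gene in all kept cells per 1000000 UMIs of these cells. A count of transcripts does not show the edit itself. Of the 2 vitamin D response genes, both were past 2-fold higher in VD3 stimulated than in untreated DCs (3.68% of all genes were). Vdr, the vitamin D receptor gene, stood at 51.1 CPM, 135 CPM and 55.4 CPM in untreated, VD3 stimulated and Ndrg2-KO DCs. Both genes were past 2-fold lower in the knockout than after VD3 (8.08% of all genes) and Vdr was not past 2-fold against untreated DCs. In the wounds Vdr was past 2-fold lower with Ndrg2-KO DCs than with control DCs (4.98 CPM beside 12.7 CPM, with 5.28% of all genes lower). Cyp24a1, which encodes the vitamin D-degrading enzyme that vitamin D induces, held 1, 36662 and 0 UMIs in untreated, VD3 stimulated and Ndrg2-KO DCs. With 1 library per condition no difference has a replicate check and no test between conditions was made. Parentheses after CPM, log2 ratios and shares are exact 95% intervals that cover counting error only.

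Cd80, the CD28 ligand with the higher affinity for CTLA-4, separated the cultures most. Cd80 was counted at 58.0 CPM (56.7 to 59.3) without treatment, 91.7 CPM (90.0 to 93.5) after VD3 and 17.1 CPM (16.5 to 17.8) after the knockout. The level was thus highest after VD3 and lowest after the knockout. The Ndrg2-KO library was 5.35-fold lower than the VD3 stimulated library, a log2 ratio of -2.42 (-2.48 to -2.36), and 3.38-fold lower than untreated DCs. Cells drawn down to 2000 UMIs each, which puts cells of unlike depth on 1 scale, held a Cd80 UMI in 10.5% of untreated, 14.2% of VD3 stimulated and 3.94% of Ndrg2-KO cells. Without drawing, the shares were 43.5%, 44.1% and 21.0%. The order of the cultures was the same in shares as in CPM. Neutrophil-like cells of the untreated culture held a Cd80 UMI in 3.98% of cells after drawing. As this class also held Cd80 in the wounds, it was not taken as a background, and no class of the cultures served as one.

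Cd86, the other CD28 ligand, was nearly level. Its counts were 90.7 CPM (89.0 to 92.3) without treatment, 85.0 CPM (83.3 to 86.7) after VD3 and 74.7 CPM (73.3 to 76.1) after the knockout. The log2 ratio to untreated DCs was -0.09 (-0.13 to -0.05) after VD3 and -0.28 (-0.32 to -0.24) after the knockout, far smaller than that of Cd80 in the knockout. When each cell was given equal weight in place of each UMI, the knockout ratio became 0.01 against untreated and 0.38 against VD3 stimulated DCs, so that the sign of Cd86 depends on how cells are weighted.

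Cd83, the maturation marker, was counted at 169 CPM (167 to 171) without treatment, 205 CPM (202 to 207) after VD3 and 81.0 CPM (79.5 to 82.5) after the knockout. It was 2.09-fold lower in the knockout than without treatment, and 2.53-fold lower than in VD3 stimulated DCs. The ratio of VD3 stimulated to untreated DCs was small (0.28 (0.25 to 0.30)) and turned to -0.06 with cells weighted equally.

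Cd40, the receptor for T cell help, was low in both treated cultures. It was counted at 14.6 CPM (14.0 to 15.3) without treatment, 5.16 CPM (4.76 to 5.59) after VD3 and 3.82 CPM (3.50 to 4.15) after the knockout. Against untreated DCs the log2 ratio was -1.503 (-1.64 to -1.37) after VD3 and -1.94 (-2.08 to -1.80) after the knockout. The treated cultures differed from each other by -0.44 (-0.61 to -0.27), and this sign turned to 0.35 with cells weighted equally. At 2000 UMIs, a Cd40 UMI was held by 2.93% (2.54 to 3.36) of cells without treatment, 0.912% (0.712 to 1.15) after VD3 and 1.03% (0.822 to 1.28) after the knockout. In the neutrophil-like cells of the untreated culture, which should lack it, the share was 0.166%, at a median of 2726.5 UMIs per cell before drawing against 14291 in mature DC-like cells. Undrawn shares were 18.1%, 5.52% and 5.58%.

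The T cell-sustaining ligands of the TNF family had another order. Tnfsf4 was counted at 9.82 CPM (9.29 to 10.4) without treatment, 6.56 CPM (6.10 to 7.04) after VD3 and 15.1 CPM (14.5 to 15.8) after the knockout. Its level was therefore lowest after VD3 and highest after the knockout, 2.31-fold apart, the reverse of the order seen for Cd80. Tnfsf9 stayed between 2.83 CPM (2.55 to 3.13) without treatment and 3.85 CPM (3.50 to 4.22) after VD3, with 3.51 CPM (3.21 to 3.83) after the knockout. For Icosl the values were 16.5 CPM (15.8 to 17.2) without treatment, 16.5 CPM (15.8 to 17.3) after VD3 and 10.7 CPM (10.2 to 11.2) after the knockout, so that untreated and VD3 stimulated DCs did not differ beyond counting error, with a log2 ratio of 0.00 (-0.09 to 0.09), and Ndrg2-KO DCs were lower, 1.55-fold.

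Among the inhibitory ligands, Cd274 was the most even. It was counted at 119.7 CPM (118 to 122) without treatment, 142 CPM (140.3 to 145) after VD3 and 157 CPM (155 to 159.5) after the knockout. All 3 cultures lay within 1.32-fold of each other, with untreated DCs lowest. The VD3 to untreated ratio of 0.25 (0.22 to 0.28) turned to -0.02 when cells were held to under 5% mitochondrial UMIs, which left 1721 Ndrg2-KO, 3125 untreated and 3619 VD3 stimulated cells. Between the treated cultures the ratio of 0.14 (0.12 to 0.17) turned to -0.05 without mitochondrial and ribosomal protein genes. At 2000 UMIs, 20.8%, 21.3% and 25.7% of cells held a Cd274 UMI, and undrawn 64.9%, 54.3% and 79.4%. Cd274 was found in all classes of cells of the cultures, so no class served as its background.

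Pdcd1lg2, its neighbour, set the cultures apart. It was counted at 49.3 CPM (48.1 to 50.5) without treatment, 18.6 CPM (17.8 to 19.4) after VD3 and 53.5 CPM (52.3 to 54.7) after the knockout. At 2000 UMIs 8.73%, 3.44% and 9.92% of cells held a Pdcd1lg2 UMI, and undrawn 39.1%, 16.1% and 39.7%. Among neutrophil-like cells the drawn shares were 7.63% without treatment and 3.80% after VD3, and this class was not taken as a background either, since it held the gene in the wounds. VD3 stimulated DCs stood 2.65-fold under untreated DCs, and Ndrg2-KO DCs stood 2.87-fold above VD3 stimulated DCs. Untreated and Ndrg2-KO DCs differed by only 0.12 (0.07 to 0.16), and this turned to -0.19 under 5% mitochondrial UMIs. Cd200, the ligand of the myeloid inhibitory receptor, was counted at 19.0 CPM (18.3 to 19.8) without treatment, 30.3 CPM (29.3 to 31.3) after VD3 and 20.0 CPM (19.3 to 20.8) after the knockout. It was 1.59-fold higher after VD3 than in untreated DCs and differed in Ndrg2-KO from untreated DCs by 0.08 (0.00 to 0.15), an interval that reaches 0.

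**Figure D1:**
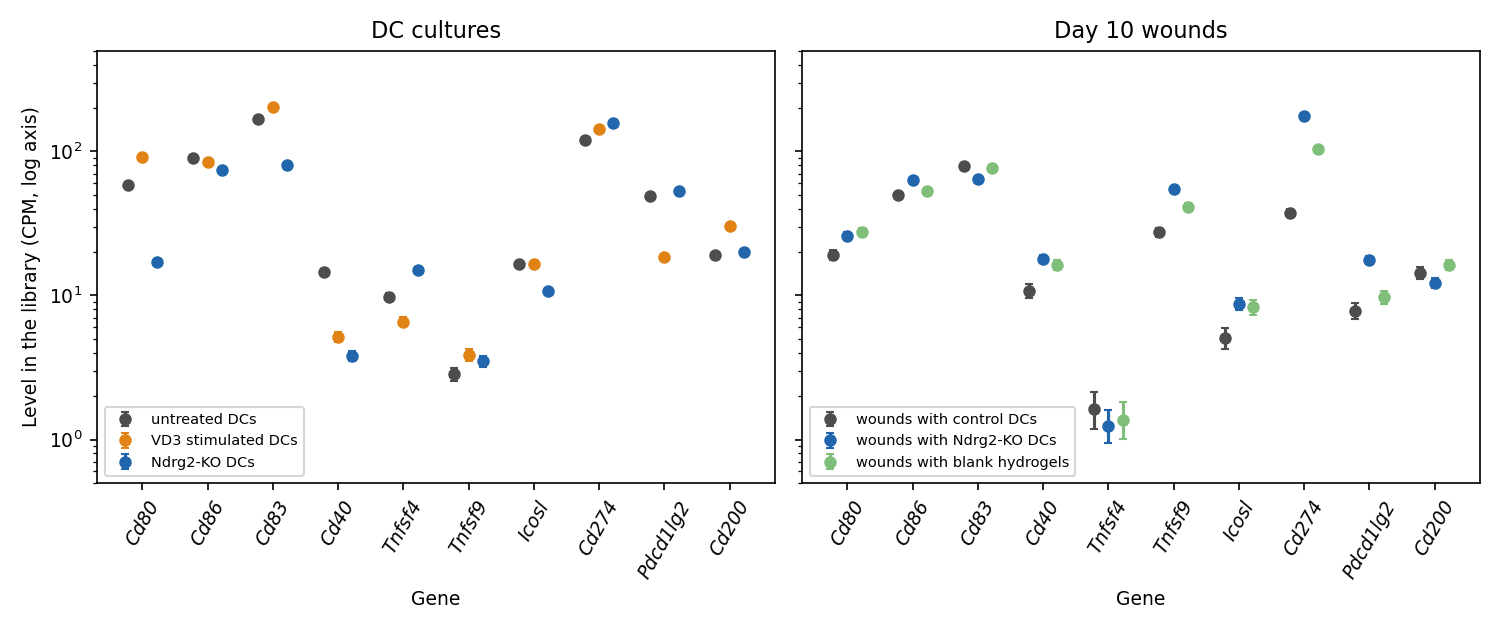
Levels of the 10 members in each library in CPM on a log axis, cultures on the left and wounds on the right, with exact 95% Poisson intervals that cover counting error only and are often smaller than the points. In the cultures, Ndrg2-KO DCs (blue) are lowest for Cd80 and Cd83, VD3 stimulated DCs (orange) are lowest for Pdcd1lg2 and Tnfsf4, and in the wounds the libraries are farthest apart for Cd274.

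The question behind the comparison of both treated cultures is whether loss of Ndrg2 gives the ligand profile of VD3, since Ndrg2 was low in both. A gene was taken as past the fold when its CPM ratio was at least 2 or at most 0.5, among genes with at least 100 UMIs in both sums together. In VD3 stimulated against untreated DCs, 0 members were higher (3.68% of all genes tested were) and 2 were lower, Cd40 and Pdcd1lg2 (6.61% of all genes). In Ndrg2-KO against untreated DCs, 0 members were higher (9.12% of all genes) and 3 were lower, Cd80, Cd83 and Cd40 (7.94%). In Ndrg2-KO against VD3 stimulated DCs, 2 were higher, Tnfsf4 and Pdcd1lg2 (12.1%), and 2 lower, Cd80 and Cd83 (8.08%). The first pair of comparisons shares the untreated library. Cd40 was the member past 2-fold in both, and in both it was lower. The call of Cd83 depended on the processing. Against untreated DCs it came to -0.997 with scaling to the median gene, -0.92 with all barcodes and -0.65 with cells weighted equally, and against VD3 stimulated DCs to -0.59 with cells weighted equally, all under the fold. The median log2 ratio over the 10 members was 0.13, -0.10 and -0.31 in the comparisons as ordered here, beside -0.08, -0.06 and 0.00 over all genes tested.

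Levels summed over a library mix how many cells of a kind it holds with the level in each. The cells of the cultures were therefore clustered without the members among the genes used, and clusters were named by fixed marker lists. Mature DC-like cells (Ccr7, Fscn1, Ccl22 and others) made up 37.0% of untreated, 39.5% of VD3 stimulated and 26.5% of Ndrg2-KO cells. All 8 markers of that list were found in each library, at a summed level of 6301, 6200 and 5525 CPM. Monocyte or macrophage-like cells made up 0.441%, 16.4% and 51.4%, with 12 of 12 markers found and summed levels of 7571, 3716 and 21759 CPM. The neutrophil list of 8 genes summed to 5325, 6328 and 399.8 CPM. The DC genes Itgax (CD11c) and H2-Ab1 (MHC class II) were found in each culture, at 146 CPM, 77.8 CPM and 263 CPM and at 908 CPM, 561 CPM and 487 CPM. The part of these shares in the whole-library values was not tested beyond the class values that follow. The mature DC-like cells came from different clusters in each library, cluster 1 for VD3 stimulated (3295 cells), cluster 2 for untreated (2566 cells) and cluster 5 for Ndrg2-KO DCs (1830 cells), so that a mature cluster may be that library and not a type. Another cluster, numbered 13, was shallow and held 70, 171 and 118 cells of untreated, VD3 stimulated and Ndrg2-KO DCs.

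The mature classes also differed in markers. In untreated, VD3 stimulated and Ndrg2-KO cells of the class, the monocytic receptor gene Csf1r stood at 3.41 CPM, 2.80 CPM and 36.3 CPM, Itgax at 25.02 CPM, 31.9 CPM and 124 CPM, and Fscn1, of the mature DC list, at 623 CPM, 347 CPM and 206 CPM. Ccr7, of the same list, stood at 1186 CPM, 1424 CPM and 992 CPM. Ccl5 and Tmem123 of that list went the other way, at 8892 CPM, 5481 CPM and 18451 CPM and at 1309.8 CPM, 1128 CPM and 1389 CPM. The class of the knockout thus had more Csf1r, Itgax, Ccl5 and Tmem123 than the others. Of the 8 genes of the list, 4 were lowest in it, Ccr7, Fscn1, Il4i1 and Cacnb3, and 2 highest. Mitochondrial UMIs differed as well, since 36.0% of the untreated cells of cluster 2, 23.4% of the VD3 stimulated cells of cluster 1 and 11.04% of the Ndrg2-KO cells of cluster 5, the main cluster of each, were under 5%. The part of these differences in the values that follow was not tested. Within mature DC-like cells Cd80 kept its order. It was counted at 127 CPM (123 to 130.0), 159.8 CPM (156 to 163) and 47.3 CPM (44.7 to 50.05) in untreated, VD3 stimulated and Ndrg2-KO DCs, so that the knockout stood 3.38-fold under VD3. The share of these cells with a Cd80 UMI at 2000 UMIs was 20.8%, 24.7% and 9.87%. In cells outside the class the levels were 27.3 CPM, 39.9 CPM and 10.7 CPM, in the same order. The lower Cd80 of the knockout was thus present inside and outside the mature class.

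The deficit of Cd83 in the knockout was smaller inside the class. Cd83 was counted at 469 CPM (462 to 476), 411 CPM (405 to 416) and 338 CPM (331 to 345), a log2 ratio to untreated DCs of -0.47 (-0.51 to -0.43) against -1.06 (-1.09 to -1.03) in the whole library. Outside the class it was 34.4 CPM, 47.8 CPM and 25.7 CPM. The whole-library difference of more than 2-fold was therefore not met by either set of cells, and the share of mature DC-like cells differed beside it as given above.

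Cd86 turned over inside the class. Mature DC-like cells held 217 CPM (212 to 221), 145 CPM (141 to 148) and 274 CPM (267 to 280.0) in untreated, VD3 stimulated and Ndrg2-KO DCs. The level was highest in the knockout and 1.89-fold above that after VD3, whereas the whole libraries had differed by -0.19 (-0.23 to -0.15). Cd40 was 34.7 CPM (32.9 to 36.5), 9.14 CPM (8.32 to 10.0) and 15.9 CPM (14.4 to 17.5) in the same cells. It was lowest after VD3, and the knockout lay between, at 0.80 (0.60 to 0.99) against VD3 and -1.13 (-1.29 to -0.97) against untreated DCs.

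The largest contrasts between both treatments inside the class were those of OX40 ligand and PD-L2. Tnfsf4 stood at 23.9 CPM (22.4 to 25.4), 12.2 CPM (11.3 to 13.2) and 64.3 CPM (61.2 to 67.5), 5.26-fold higher in Ndrg2-KO than in VD3 stimulated cells. Pdcd1lg2 stood at 68.7 CPM (66.2 to 71.3), 27.0 CPM (25.6 to 28.5) and 122 CPM (118 to 126), 4.53-fold higher. Both were below untreated cells after VD3 and above them after the knockout. Cd274 was 204 CPM (200.1 to 209), 210.3 CPM (206 to 214) and 213 CPM (208 to 219), with no log2 ratio among the 3 mature classes above 0.06, and its sign turned under scaling to the median gene. Cd200 was 52.5 CPM (50.3 to 54.8), 57.8 CPM (55.7 to 59.9) and 42.6 CPM (40.1 to 45.2) and Icosl 22.2 CPM (20.8 to 23.7), 18.8 CPM (17.6 to 20.0) and 20.2 CPM (18.5 to 22.1). Tnfsf9 was rare, at 1.63 CPM (1.27 to 2.07), 1.55 CPM (1.22 to 1.93) and 3.22 CPM (2.56 to 4.002), from 67, 78 and 82 UMIs.

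Counted by the same fold, mature DC-like cells gave 0 members higher (3.16% of genes) and 2 lower (3.33%) in VD3 stimulated against untreated DCs, again Cd40 and Pdcd1lg2. Ndrg2-KO against untreated DCs gave 1 higher, Tnfsf4 (9.72%), and 2 lower, Cd80 and Cd40 (3.18%). Ndrg2-KO against VD3 stimulated DCs gave 3 higher, Tnfsf4, Tnfsf9 and Pdcd1lg2 (9.31%), and 1 lower, Cd80 (3.39%). The median of all genes in these class comparisons lay at 0.09, 0.22 and 0.12 on the log2 scale, and relative to it the same members lay past 2-fold but for Tnfsf9 in the last comparison, which came to 0.93, and Tnfsf4 in the first, which joined at -1.04. In Ndrg2-KO against untreated DCs, Cd40 left the count under 5% mitochondrial UMIs, at -0.74, and with cells weighted equally, at -0.94, so that Cd80 alone was lower. Tnfsf9 also left the count of Ndrg2-KO against VD3 stimulated DCs with cells weighted equally, at 0.86.

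**Figure D2:**
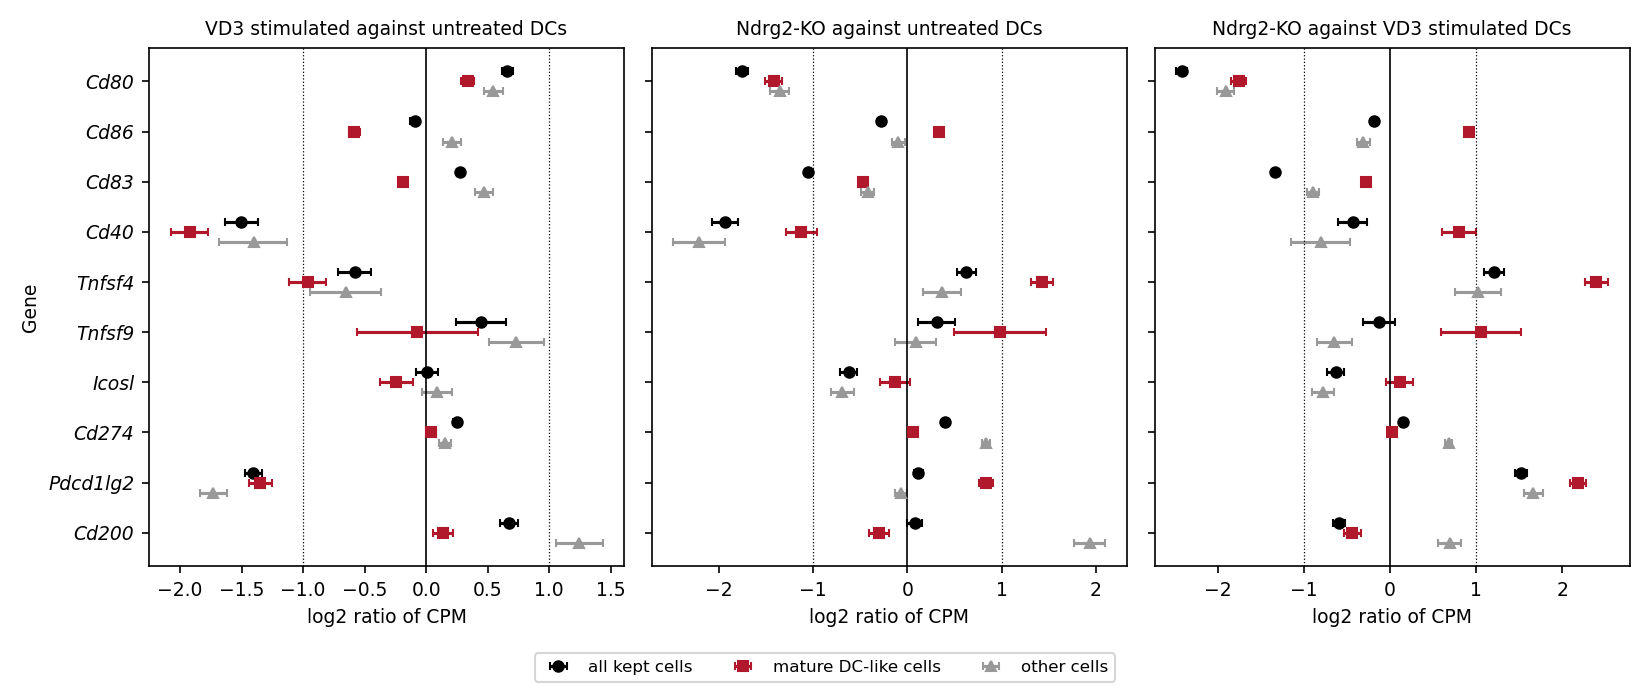
Log2 ratios of CPM for the 10 members in the 3 comparisons of the cultures, for all kept cells (black circles), mature DC-like cells (red squares) and the other cells (grey triangles), with exact 95% intervals that cover counting error only and dotted lines at 2-fold. Cd80 lies left of 2-fold in all 3 sets of cells in both Ndrg2-KO panels, Tnfsf4 and Pdcd1lg2 lie right of 2-fold in the panel against VD3, and Cd86 lies on opposite sides of 0 in mature and other cells in each panel.

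Of the Ndrg2-KO cells, 157 did not fall with the rest of their class but into cluster 2, among untreated mature cells. They had a median of 7974 UMIs and held Ndrg2 at 11.7 CPM (6.80 to 18.7, 17 UMIs), beside 5.999 CPM in the untreated cells of that cluster and 0.806 CPM in cluster 5. Their Cd80 was 141 CPM beside 128 CPM in the untreated cells, a log2 ratio of 0.14 (-0.07 to 0.34), where cluster 5 had 42.1 CPM. Pdcd1lg2 was 50.2 CPM beside 68.5 CPM, where cluster 5 had 127 CPM, and Tnfsf4 was 28.9 CPM beside 24.02 CPM, where cluster 5 had 66.9 CPM. For these 3 genes the 157 cells stood nearer to the untreated cells than to cluster 5. Of the other 7 members, Cd83, Cd40, Icosl and Cd200 were also nearer to the untreated cells, but lay above both. Cd86, Cd274 and Tnfsf9 were not nearer to the untreated cells. In the 157 cells, and then in the untreated cells and cluster 5, Cd86 was 272 CPM beside 217 CPM and 274 CPM, at the level of cluster 5, and Cd274 was 215 CPM beside 206 CPM and 216 CPM, values close to each other. The rest were higher in the 157 cells than in either, Cd83 at 692 CPM beside 473 CPM and 317 CPM, Cd40 at 46.0 CPM beside 34.6 CPM and 13.9 CPM, Icosl at 35.7 CPM beside 22.3 CPM and 19.6 CPM and Cd200 at 120.2 CPM beside 52.4 CPM and 37.5 CPM. Tnfsf9 was 21.98 CPM beside 1.57 CPM and 2.04 CPM, from 32, 63 and 48 UMIs. Without the 157 cells, the members higher in Ndrg2-KO than in VD3 stimulated mature cells numbered 2 in place of 3, since Tnfsf9 left the count. These cells were singled out after their values were seen.

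Cluster 13, which took cells from all 3 cultures, repeated part of the pattern at low depth. Pdcd1lg2 was 122 CPM after the knockout, 58.3 CPM without treatment and 20.6 CPM after VD3, a log2 ratio of 1.07 (0.31 to 1.87) for the knockout against untreated. For Cd80 the ratio was -1.03 (-2.93 to 0.66) from 5 and 10 UMIs, too few to show a difference.

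Outside the mature class the monocyte or macrophage-like cells held most of the UMIs of the knockout. They carried 55.2% of its Cd274 UMIs and 36.2% of its Pdcd1lg2 UMIs, where they held 54.6% of all its UMIs. In VD3 stimulated DCs they carried 22.9% and 19.6% of these and 24.4% of all UMIs. The Cd274 of both classes was thus close to their part of all UMIs, and the Pdcd1lg2 under it. Cd274 stood at 159 CPM (156 to 162) in Ndrg2-KO and 134 CPM (129 to 138) in VD3 stimulated cells of this class, a log2 ratio of 0.25 (0.20 to 0.31). The same cells differed in Cd80, at 8.43 CPM (7.80 to 9.09) and 52.8 CPM (50.2 to 55.5), a log2 ratio of -2.65 (-2.78 to -2.51). Cd83 (-2.06 (-2.17 to -1.96)), Cd40 (-1.79 (-2.33 to -1.26)) and Cd86 (-0.98 (-1.08 to -0.88)) were lower in the knockout as well, as were Icosl (-0.84 (-1.03 to -0.66)) and Tnfsf9 (-0.97 (-1.25 to -0.68)), and Pdcd1lg2 (1.24 (1.10 to 1.39)) was higher. Tnfsf4 was also lower in the knockout here, at 2.001 CPM (1.70 to 2.34) beside 3.31 CPM (2.68 to 4.05), a log2 ratio of -0.73 (-1.10 to -0.34), opposite in sign to that of the whole libraries and of the mature DC-like cells. Clusters 0 and 11 made up this class in Ndrg2-KO DCs and cluster 7 in VD3 stimulated DCs, and each culture had at most 2 cells in the clusters of the other. The untreated culture had 32 such cells and was not compared.

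In Ndrg2-KO against untreated DCs, Cd200 differed between classes more than the other members. In mature DC-like cells it was 1.23-fold lower in the knockout than without treatment, a sign that turned to 0.33 on the log2 scale under 5% mitochondrial UMIs, while in all other cells it was 3.82-fold higher, at 15.2 CPM beside 3.97 CPM. The mature class held 85.6% of the Cd200 UMIs of untreated, 82.4% of VD3 stimulated and 37.7% of Ndrg2-KO DCs. The whole libraries of untreated and Ndrg2-KO DCs had nearly equal levels. In untreated neutrophil-like cells Cd200 stood at 1.20 CPM (0.389 to 2.80) from 5 UMIs, and after drawing to 2000 UMIs 0 of 603 cells held one, which allows a share of up to 0.610% of cells with a Cd200 UMI at that depth.

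**Figure D3:**
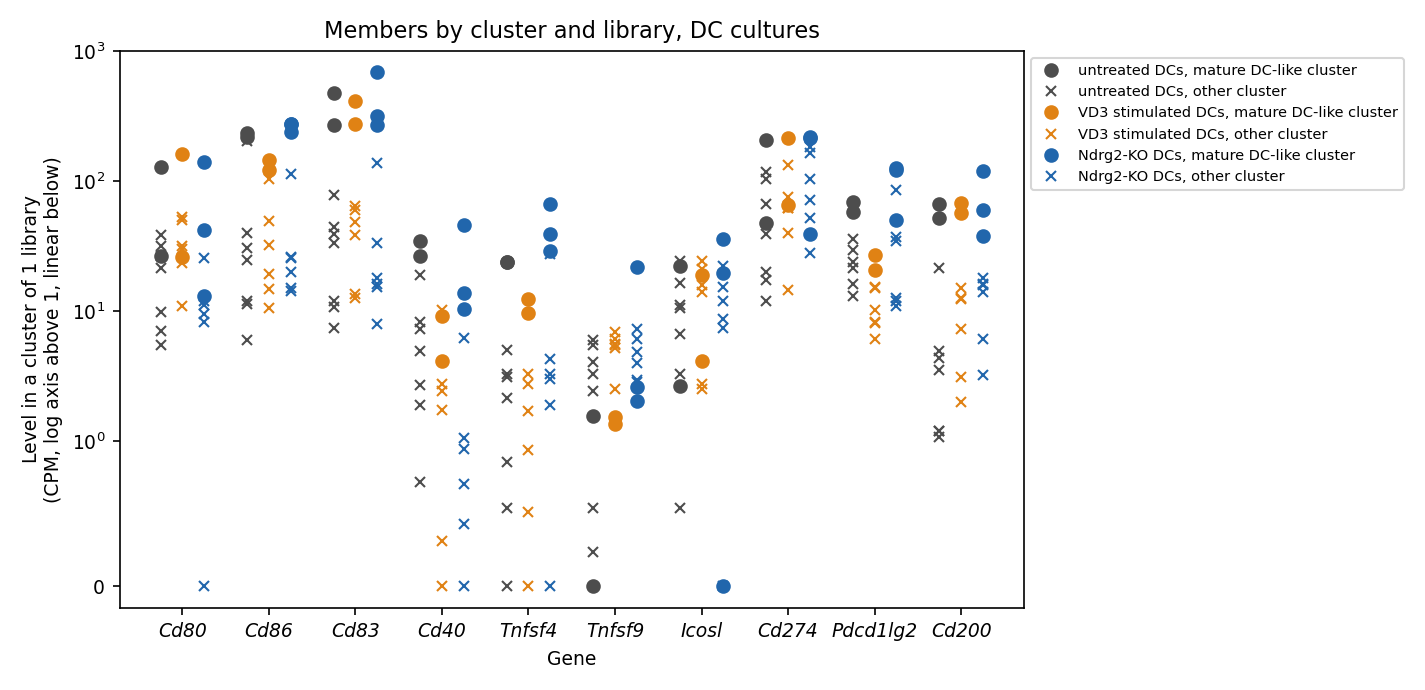
Level of each member in every cluster of each culture with at least 50 cells, in CPM on an axis that is logarithmic above 1 and linear below. Circles are mature DC-like clusters and crosses all others. Cd83, Tnfsf4 and Cd200 are highest in mature clusters in all 3 cultures, while the crosses of Cd274 and Pdcd1lg2 reach up among the circles and those of Tnfsf9 lie above most of them.

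A ratio of members within a library does not depend on how libraries are scaled, although capture can differ between genes, so that it is read only between libraries. The ratio of Cd274 to Cd80 UMIs was 2.06 (2.01 to 2.12) without treatment, 1.55 (1.52 to 1.59) after VD3 and 9.19 (8.81 to 9.58) after the knockout. Within mature DC-like cells it was 1.62 (1.56 to 1.67), 1.32 (1.28 to 1.35) and 4.51 (4.24 to 4.81). VD3 thus had the lowest ratio and the knockout the highest, inside the class and over the library. Pdcd1lg2 to Cd80 showed the same order, at 0.850 (0.822 to 0.879), 0.203 (0.194 to 0.212) and 3.12 (2.98 to 3.27).

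Set against Cd86, the order changed. Cd274 to Cd86 was 1.32 (1.29 to 1.35), 1.68 (1.64 to 1.72) and 2.11 (2.06 to 2.16) over the libraries, highest in the knockout. In mature DC-like cells it was 0.944 (0.916 to 0.973), 1.45 (1.41 to 1.499) and 0.780 (0.753 to 0.809), highest after VD3 and lowest in the knockout. Cd200 to Cd86 was 0.243 (0.231 to 0.254), 0.399 (0.382 to 0.417) and 0.156 (0.146 to 0.166) in these cells. Which culture had the larger share of inhibitory ligand therefore depended on the B7 gene it was set against and on the cells counted.

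**Figure D4:**
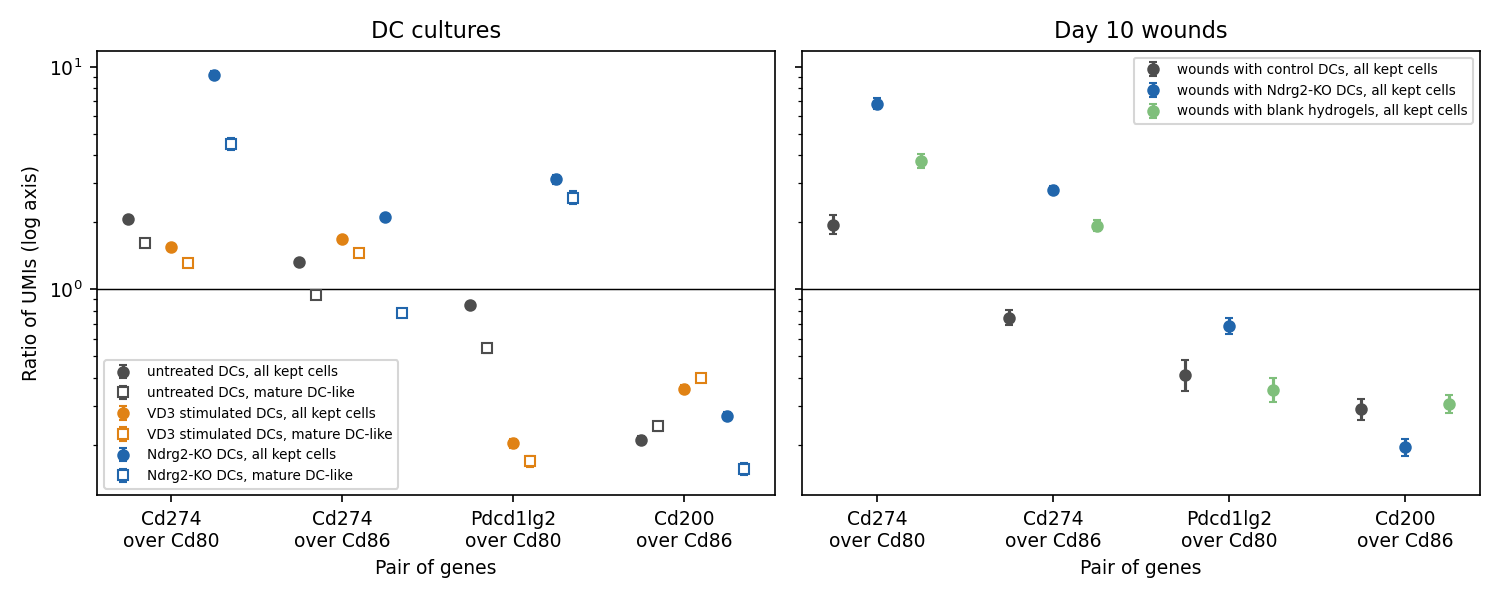
Ratios of UMIs of an inhibitory over a costimulatory member within each library, on a log axis with a line at 1, for all kept cells (filled circles) and, in the cultures, mature DC-like cells (open squares), with exact 95% intervals that cover counting error only. Ndrg2-KO DCs are highest for Cd274 over Cd80 and Pdcd1lg2 over Cd80, while for Cd274 over Cd86 their open square is the lowest of the 3 cultures.

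How many ligands a cell held together depended on the cells counted. At 2000 UMIs, UMIs of at least 3 members were found in 10.7% (9.93 to 11.4) of cells without treatment, 8.87% (8.24 to 9.53) after VD3 and 7.22% (6.66 to 7.82) after the knockout. Among mature DC-like cells the shares were 25.1% (23.4 to 26.8), 18.5% (17.2 to 19.8) and 23.9% (22.1 to 25.8), lowest after VD3. PD-L1 and CD80 were found together in part. In untreated mature cells 38.4% (34.3 to 42.6) of cells with and 30.7% (28.8 to 32.8) of cells without a Cd80 UMI held Cd274. In VD3 stimulated mature cells these shares were 36.7% (33.4 to 40.0) and 31.7% (29.9 to 33.5). In Ndrg2-KO mature cells they were 33.2% (26.8 to 40.1) and 34.0% (31.9 to 36.2). The intervals of each pair overlap after VD3 and after the knockout. With and without a Cd86 UMI, the shares of mature cells with Cd274 were 33.6% (30.3 to 36.9) and 31.8% (29.7 to 33.9) without treatment, 35.2% (31.9 to 38.6) and 32.2% (30.5 to 34.1) after VD3 and 32.6% (29.4 to 36.0) and 34.8% (32.2 to 37.4) after the knockout, with overlapping intervals in each pair.

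Across 26 units, each a cluster within 1 culture with at least 50 cells, the members were compared with 7362 other genes on log2(CPM + 1). These correlations describe units that share libraries, depth and clusters, and carry no test. Cd83 was most like Traf1 (r = 0.98), which encodes an adaptor of TNF receptors, then Cacnb3 and the chemokine receptor Ccr7. Cd80 was most like Rel (r = 0.92), an NF-kB subunit, then Pik3r1 and Filip1l. Cd86 and Cd200 both had Pkib first (r = 0.94 and 0.93). Cd274 was most like Sbf2 (r = 0.94), Icosl like Crybg3 (0.92), Cd40 like Grasp (0.91) and Tnfsf4 like Sept4 (0.93). Pdcd1lg2 had Slc7a7 first (0.84) and its fellow member Tnfsf4 second (0.81), and Tnfsf9 had no gene above Trim12a (0.75). Among the members themselves, Cd86 and Cd83 were closest (r = 0.89) and Tnfsf9 and Pdcd1lg2 farthest apart (r = -0.21), while the CD28 ligands Cd80 and Cd86 had r = 0.63 and the PD-1 ligands Cd274 and Pdcd1lg2 r = 0.52.

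Other genes of the system were counted by lists. Their counts are read beside the share of all genes past 2-fold in the same comparison. Of 11 genes of CD40 and NF-kB signalling, 0 were past 2-fold in VD3 stimulated against untreated DCs in either direction (3.68% of all genes were higher and 6.61% lower). In Ndrg2-KO against untreated DCs 0 were higher and 4 lower, Traf1 (-1.05), Nfkb2 (-1.04), Rel (-1.07) and Relb (-1.01), beside 9.12% higher and 7.94% lower among all genes. With scaling to the median gene 1 of the 4 stayed past 2-fold, Rel (-1.002), while Traf1 (-0.99), Nfkb2 (-0.98) and Relb (-0.95) did not, and in VD3 stimulated against untreated DCs Nfkbia joined as higher (1.02). The list median before this scaling was -0.71 beside -0.06 for all genes. Against VD3 stimulated DCs 5 were lower, the same genes and Nfkbia, the NF-kB inhibitor (163 CPM beside 577 CPM), where 8.08% of all genes were. The list's low values stood beside the smaller share of mature DC-like cells in this library, whose part in them was not tested.

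Of 12 other co-signalling ligands, 10 could be tested against untreated DCs. After VD3 (3.68% of all genes higher, 6.61% lower), 2 were higher, Tnfsf14 (LIGHT) and Tnfrsf14 (its receptor HVEM), and 2 lower, Cd276 (B7-H3) and Tnfsf8 (CD30 ligand). After the knockout (9.12% and 7.94%), 2 were higher, Vsir (VISTA, 69.2 CPM beside 30.7 CPM) and Tnfrsf14, and 1 lower, Cd276. Tnfsf8 had the order of Tnfsf4 and Pdcd1lg2, at 11.4 CPM without treatment, 2.34 CPM after VD3 and 13.3 CPM after the knockout. Between the treated cultures (12.1% and 8.08%), 3 of 9 were higher in Ndrg2-KO DCs, Tnfsf8, Lgals9 (galectin-9) and Nectin2, and 2 lower, Tnfsf14 and Cd70. The members' receptors were also counted, 5 of 8 having enough UMIs, with the same shares of all genes. In VD3 stimulated against untreated DCs 1 was higher, Cd28, and 2 lower, Tnfrsf4 and Cd200r1. In Ndrg2-KO against untreated DCs 0 were higher and 3 lower, Cd28, Icos and Tnfrsf4, and against VD3 stimulated DCs 2 were higher, Tnfrsf9 and Cd200r1, and these 3 lower. The CD200 receptor Cd200r1 stood at 107 CPM, 26.5 CPM and 197 CPM, and the 4-1BB gene Tnfrsf9 at 106 CPM, 90.9 CPM and 183 CPM. Both were lowest after VD3 and highest after the knockout.

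In the wounds, Cd274 differed most. It was counted at 37.3 CPM (35.1 to 39.5) in wounds with control DCs, 177 CPM (173 to 181) in wounds with Ndrg2-KO DCs and 103 CPM (99.96 to 107) in wounds with blank hydrogels. Wounds with Ndrg2-KO DCs were 4.75-fold and blank wounds 2.77-fold above wounds with control DCs, log2 ratios of 2.25 (2.16 to 2.34) and 1.47 (1.37 to 1.57). Both comparisons share the control library. At 1000 UMIs per cell 5.10%, 18.4% and 12.4% of cells held Cd274, and undrawn 23.6%, 41.5% and 36.7%. In fibroblast-like cells, which served as background, the drawn shares were 0 of 457 cells (up to 0.804%), 0.686% and 1.02%, under the shares of the whole libraries. Fibroblast-like cells had medians of 29455, 26374 and 27688 UMIs before drawing, and neutrophil-like cells 3277, 2928 and 3359. The fibroblast-like shares thus do not set a background for shallower classes. The 74 erythroid-like cells, 62 of them with Ndrg2-KO DCs, held Cd274 at 167 CPM (136 to 204) from 98 UMIs, pooled over the wounds. This class also held 3 markers of the neutrophil list, and the source of its Cd274 was not tested.

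Pdcd1lg2 was counted at 7.82 CPM (6.84 to 8.89) in wounds with control DCs, 17.7 CPM (16.6 to 18.9) in wounds with Ndrg2-KO DCs and 9.71 CPM (8.71 to 10.8) in wounds with blank hydrogels, log2 ratios to control wounds of 1.18 (0.97 to 1.40) and 0.31 (0.07 to 0.56). The first is past 2-fold over the whole library, but came to 0.89 with cells weighted equally. Within classes it was 0.82 (0.34 to 1.33) in neutrophil-like, 0.58 (0.23 to 0.95) in monocyte or macrophage-like and -0.19 (-0.79 to 0.44) in mature DC-like cells, all under 2-fold. Tnfsf9 was counted at 27.5 CPM (25.6 to 29.5) in wounds with control DCs, 55.0 CPM (52.9 to 57.1) in wounds with Ndrg2-KO DCs and 41.5 CPM (39.3 to 43.6) in wounds with blank hydrogels. Its log2 ratio for Ndrg2-KO against control wounds, 0.999 (0.89 to 1.11), lay at the 2-fold line. Cd80 was 19.1 CPM (17.5 to 20.7), 25.9 CPM (24.5 to 27.4) and 27.5 CPM (25.8 to 29.3), Cd86 was 49.9 CPM (47.4 to 52.5), 63.2 CPM (61.0 to 65.4) and 53.5 CPM (51.1 to 55.9), and both ratios to control wounds changed sign with cells weighted equally. Cd83 was 79.0 CPM (75.8 to 82.3), 64.5 CPM (62.3 to 66.8) and 76.4 CPM (73.5 to 79.4), and Cd40 was 10.8 CPM (9.67 to 12.1), 17.9 CPM (16.7 to 19.1) and 16.3 CPM (15.0 to 17.7). Icosl stayed between 5.05 CPM (4.28 to 5.93) and 8.71 CPM (7.91 to 9.58), Cd200 between 12.3 CPM (11.3 to 13.3) and 16.3 CPM (15.0 to 17.7), and Tnfsf4 at or under 1.62 CPM (1.19 to 2.14). With cells weighted equally, the Cd40 log2 ratio to control wounds fell from 0.72 to 0.08 with Ndrg2-KO DCs and from 0.59 to 0.13 with blank hydrogels. The Cd200 ratio of blank wounds turned from 0.18 to -0.68, and the Cd83 ratio with Ndrg2-KO DCs went from -0.29 to -0.80.

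For wounds with Ndrg2-KO against control DCs, 2 members were at least 2-fold higher (3.92% of genes tested were) and 0 lower (5.28%). With scaling to the median gene, which lay at -0.14 on the log2 scale, Tnfsf9 joined them at 1.14. For blank against control wounds, 1 member, Cd274, was higher (3.06%) and 0 lower (3.17%) among 9 tested, Tnfsf4 having too few UMIs. In the lists, 2 of 11 NF-kB signalling genes were higher with Ndrg2-KO DCs (beside the 3.92% of all genes), Traf1 (1.74) and Nfkbia (1.10), and Traf1 alone in blank wounds (1.05). None of 8 other co-signalling ligands tested was past 2-fold in either comparison.

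The cells behind these values differed between the wounds. Neutrophil-like cells made up 23.6% of cells in wounds with control DCs, 51.0% with Ndrg2-KO DCs and 45.8% with blank hydrogels, and the 8 neutrophil markers, all found in each, summed to 8447, 25892 and 20182 CPM. These cells held 28.3%, 64.5% and 50.6% of the Cd274 UMIs. Within them Cd274 still differed, at 192 CPM (171 to 214), 575 CPM (559.6 to 589.8) and 310.0 CPM (296 to 325), log2 ratios to control wounds of 1.58 (1.42 to 1.75) and 0.69 (0.52 to 0.87). Both neutrophil-like clusters showed it, cluster 0 at 148 CPM, 317 CPM and 267 CPM and cluster 1 at 375 CPM, 924 CPM and 441 CPM. Cluster 1, with the higher levels, held 77, 1004 and 293 of these cells, and cluster 0 held 382, 1893 and 1264. The part of this mix in the values of the class was not tested. The part of the share of neutrophil-like cells in the whole-wound difference was not tested. Cd80 went the other way in these cells, at 118 CPM (102 to 136), 64.0 CPM (59.0 to 69.2) and 62.1 CPM (55.9 to 68.8), so that control wounds were highest. Icosl was level, at 30.1 CPM, 28.7 CPM and 30.6 CPM.

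Monocyte or macrophage-like cells gave 34.7%, 29.3% and 34.4% of the cells and most of the Cd83, Cd86 and Cd40 UMIs. In them Cd274 was 70.6 CPM (65.0 to 76.5), 136 CPM (130.5 to 141) and 104 CPM (98.8 to 109), in the same order as in the neutrophil-like cells. Tnfsf9 was 45.8 CPM (41.4 to 50.7), 96.8 CPM (92.3 to 101) and 74.4 CPM (69.9 to 79.0), a log2 ratio of 1.08 (0.92 to 1.24) for Ndrg2-KO against control wounds. Cd83 was highest with control DCs, at 224 CPM (214 to 234) beside 146 CPM (141 to 152) and 153 CPM (147 to 159.6). Cd200 was 7.02 CPM (5.35 to 9.06), 17.6 CPM (15.7 to 19.6) and 9.51 CPM (7.97 to 11.3), highest with Ndrg2-KO DCs. Cd86 and Cd80 had log2 ratios of -0.10 (-0.20 to 0.01) and -0.21 (-0.42 to 0.00) for Ndrg2-KO against control wounds.

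Mature DC-like cells were few in the wounds, 11, 20 and 28 cells. They nonetheless had the highest levels of several members, with Cd200 at 563 CPM (446 to 702), 427 CPM (356 to 509) and 439 CPM (377 to 507) and Cd83 at 684 CPM (554 to 836), 267 CPM (211 to 333) and 415 CPM (355 to 481). Cd80 stood at 178 CPM (115 to 263), 75.2 CPM (47.1 to 114) and 152 CPM (117 to 194) from 25, 22 and 63 UMIs. These values rest on few cells of 1 library each, and intervals over UMIs do not cover the spread between cells. Cd40 was 107 CPM (59.9 to 176), 328 CPM (266 to 401) and 106 CPM (77.1 to 142). Cd274 was 199.6 CPM (133 to 288), 236 CPM (184 to 298) and 263 CPM (216 to 317), with a log2 ratio of 0.24 (-0.41 to 0.93) for Ndrg2-KO against control wounds whose interval holds 0, and it was not in the order of the neutrophil-like and the monocyte or macrophage-like cells. Endothelial-like cells, which carry CD200 in many tissues, held it at 183 CPM (156 to 213), 115 CPM (90.4 to 144) and 158 CPM (129.8 to 189.9).

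**Figure D5:**
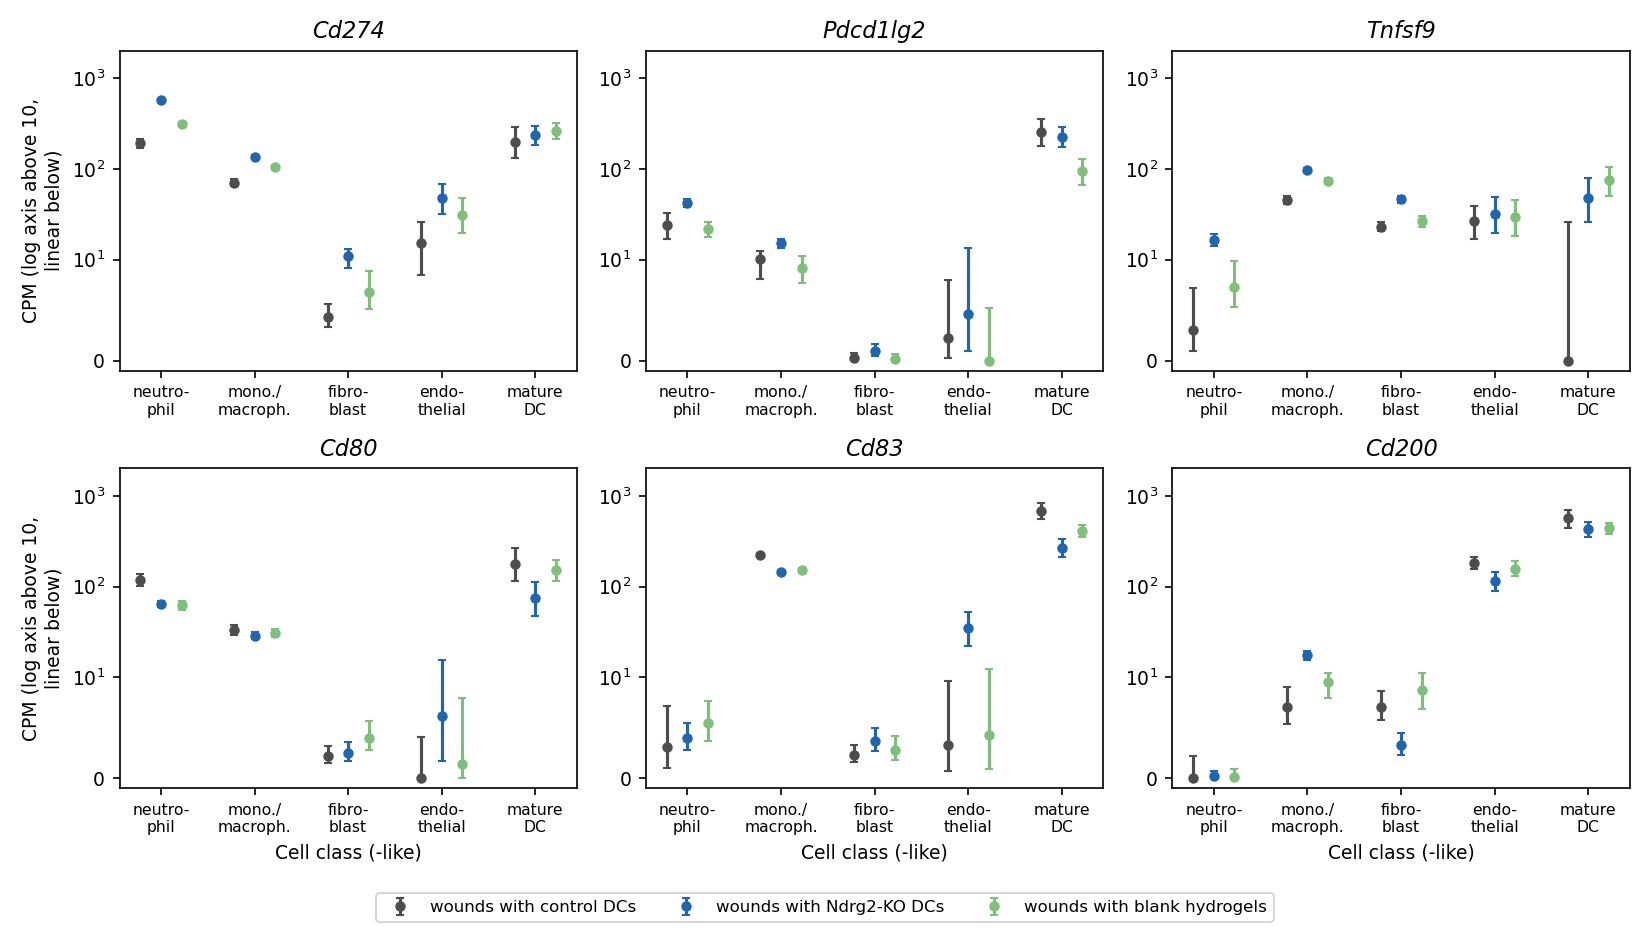
Levels of 6 members in 5 cell classes of the wounds, in CPM on an axis that is logarithmic above 10 and linear below, with exact 95% Poisson intervals that cover counting error only. Cd274 is higher with Ndrg2-KO DCs (blue) than with control DCs (black) in neutrophil-like and monocyte or macrophage-like cells, Cd80 is highest with control DCs in neutrophil-like cells, and Cd200 is highest in mature DC-like and endothelial-like cells.

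The ratio of Cd274 to Cd80 over the wound libraries was 1.95 (1.76 to 2.17) with control DCs, 6.83 (6.44 to 7.25) with Ndrg2-KO DCs and 3.76 (3.50 to 4.04) with blank hydrogels, and Cd274 to Cd86 was 0.746 (0.690 to 0.807), 2.80 (2.69 to 2.92) and 1.93 (1.83 to 2.04). Blank wounds lay between the others in both. The receptor genes Pdcd1, Icos, Cd28 and Ctla4 had between 60.2% and 84.2% of their UMIs in 1 cluster of the wounds, numbered 6, that no marker list named and that held T cell and mast cell genes. There the PD-1 gene Pdcd1 stood at 91.4 CPM, 71.1 CPM and 127 CPM, Icos at 637 CPM, 548 CPM and 533 CPM, Cd28 at 389.5 CPM, 342 CPM and 237 CPM, and Ctla4 at 136 CPM, 139 CPM and 249 CPM. The cluster held 153, 273 and 130 cells. Of the 8 receptors, Tnfrsf9 was past 2-fold with Ndrg2-KO against control DCs (64.6 CPM beside 30.9 CPM) and none of the others was, where 3.92% of all genes were higher and 5.28% lower. In blank against control wounds 0 of the 7 tested were, where 3.06% were higher and 3.17% lower.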

How the data were processed

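Single-cell RNA was measured in 6 droplet libraries, 3 of cultures and 3 of wounds, 1 per condition, with groups taken from the labels. The files hold raw UMI counts per gene and cell as deposited by the authors, filtered to cells by Cell Ranger (3.1.0 for the cultures and 6.0.0 for the wounds, per the file headers). The study names the genome build mm10, while the submitters' processing notes name mm9 and Seurat 3.1.1. Gene counts do not carry the build, and coordinates here come from the annotation named in the text.

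Cells were kept at 300 genes or more, below 100000 UMIs and below 10% mitochondrial UMIs (Python 3.11.15, scanpy 1.11.5, scipy 1.17.1). UMIs of kept cells were summed and given as CPM, with exact Poisson 95% intervals. Ratios of CPM carry exact conditional binomial intervals, and shares of cells Clopper-Pearson intervals after each cell was drawn to 2000 UMIs (cultures) or 1000 UMIs (wounds). This left out 472 shallower cells of the untreated, 1149 of the VD3 stimulated and 134 of the Ndrg2-KO culture, and in the wounds 25 with control DCs, 95 with Ndrg2-KO DCs and 65 with blank hydrogels. PCR and capture are not independent, so that intervals and the floor of 3 UMIs for a count of 0 cover counting error only. With 1 library per condition no test was made, and genes were counted past 2-fold among those with at least 100 UMIs in both sums.

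Cells were clustered with Seurat 5.3.0 (2000 variable genes without the members, 15 principal components, 15 neighbours, resolution 0.5). Cell names are rebuilt from marker lists and may differ from the study's. Names required 3 or more markers of a list at 50 CPM and at 2-fold over the remaining cells. Doublets were not removed. Scrublet marked at most 0.873% of cells of any library by its own threshold, so the highest 6% of scores per library were left out as an alternative. Named genes were the 10 members, 4 lists (12 other co-signalling ligands, 8 receptors of the members, 11 CD40 and NF-kB signalling genes, 2 vitamin D response genes), Ndrg2, and the 3 genes most like each member. The members and lists were chosen with earlier results of these data known. Counts with known changes were simulated for each comparison. For 12296 genes of the VD3 stimulated and untreated DCs, genes changed 2-fold passed the 2-fold line in 44.7% of cases. Genes changed 4-fold passed it in 100% and unchanged genes in 0.0331%. For Ndrg2-KO against VD3 stimulated DCs these values were 51%, 99% and 0.188%. The simulation held counting error only and no spread between cultures or pools. It therefore does not give the rate of false calls between real libraries.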

Additional observations from a re-analysis of the deposited data

Results flagged for a closer look

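In the cultures, 9 log2 ratios of CPM, with 95% intervals that leave out 0 in both sets of cells, pointed one way in mature DC-like cells and the other way in the remaining cells. Ratios of opposite sign with an interval that holds 0 are not among them, such as Icosl and Tnfsf9 in VD3 stimulated against untreated DCs. Each rests on 1 library per condition, and the difference between the sets of cells was not tested.

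Cd86 did so in each comparison. It was -0.58 in mature DC-like and 0.21 in other cells for VD3 stimulated against untreated DCs, 0.34 and -0.10 for Ndrg2-KO against untreated DCs, and 0.92 and -0.31 for Ndrg2-KO against VD3 stimulated DCs. Cd200 did so in both comparisons of the knockout, at -0.30 in mature DC-like and 1.93 in other cells against untreated DCs, and at -0.44 and 0.69 against VD3 stimulated DCs. With cells held to under 5% mitochondrial UMIs the Cd200 ratios of mature DC-like cells turned to 0.33 and 0.11.

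Cd83 was -0.19 in mature DC-like and 0.47 in other cells for VD3 stimulated against untreated DCs. Pdcd1lg2 was 0.83 and -0.07 for Ndrg2-KO against untreated DCs. In that comparison the median over all genes tested was 0.22 in mature DC-like and -0.12 in other cells. Cd86 and Pdcd1lg2 lay above this median in both sets of cells, so that relative to it their signs were not opposite. For Ndrg2-KO against VD3 stimulated DCs, Cd40 was 0.80 in mature DC-like and -0.81 in other cells, and Tnfsf9 was 1.06 and -0.65.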

How the results depend on the processing

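Counts of members past 2-fold moved by more than 1.5 times under 4 of the alternatives tried, and each is given with its value at the main settings and the share of all genes past the same fold. With 1.5-fold in place of 2-fold, members higher numbered 2 in VD3 stimulated against untreated DCs (0 at 2-fold, 8.91% of all genes), 1 in Ndrg2-KO against untreated DCs (0, 17.0%), 5 in wounds with Ndrg2-KO against control DCs (2, 8.86%) and 4 in blank against control wounds (1, 8.32%), and members lower in Ndrg2-KO against VD3 stimulated DCs numbered 4 (2, 16.6%). In mature DC-like cells at 1.5-fold, 3 were higher in Ndrg2-KO against untreated DCs (1, 22.03%) and 5 in Ndrg2-KO against VD3 stimulated DCs (3, 18.9%). Under 5% mitochondrial UMIs, in Ndrg2-KO against untreated DCs, 1 was higher, Tnfsf9 (0, 9.03%) and, in mature DC-like cells, 1 lower (2, 3.35%). With cells weighted equally, 1 was higher in Ndrg2-KO against untreated DCs, Tnfsf4 (0, 9.20%), 1 lower in Ndrg2-KO against VD3 stimulated DCs (2, 7.13%), 1 higher in wounds with Ndrg2-KO against control DCs (2, 2.01%) and 1 lower in mature DC-like cells of Ndrg2-KO against untreated DCs (2, 3.04%). At clustering resolution 1.0, 2 were higher in the same mature cells (1, 9.37%). Other counts changed by 1 member, which is within 1.5 times. Members lower in Ndrg2-KO against untreated DCs numbered 2 in place of 3 with all barcodes (7.92% of all genes), with scaling to the median gene (7.14%) and with cells weighted equally (7.27%), and 4 at 1.5-fold (17.9%). Members higher in wounds with Ndrg2-KO against control DCs numbered 3 in place of 2 under 5% mitochondrial UMIs (3.98%) and with that scaling (5.23%). In mature DC-like cells, members lower in VD3 stimulated against untreated DCs numbered 3 in place of 2 at 1.5-fold (7.88%), at resolution 1.0 (3.44%), under 5% mitochondrial UMIs (2.77%) and with that scaling (3.84%), and members higher in Ndrg2-KO against VD3 stimulated DCs numbered 2 in place of 3 with that scaling (7.93%), with cells weighted equally (8.88%), with cells chosen by markers (10.1%) and without the knockout cells of cluster 2 (9.55%). The causes were not tested. In all, 152 of these recomputed counts stayed within 1.5 times and 14 moved, and of the log2 ratios 461 moved by no more than their interval and 189 by more. Of the shares of cells, which follow the depth to which cells are drawn, 172 moved by more than their interval and 8 did not, of the UMI ratios 10 did and 38 did not, and of the levels in mature DC-like cells 7 did and 13 did not. Relative to the median gene, 37 counts of the other gene lists stayed within 1.5 times and 3 moved. They are the genes of CD40 and NF-kB signalling, 1 higher in place of 0 after VD3 (4.25% of all genes) and 1 lower in place of 4 after the knockout (7.14%), and 1 other co-signalling ligand, Tnfsf14, higher in place of 0 in wounds with Ndrg2-KO against control DCs (5.23%). Leaving out a shallow cluster or the knockout cells of cluster 2, and scaling to the median gene in mature DC-like cells and for the gene lists, were chosen after seeing the data. No library could be left out and no paired analysis was possible because each condition had 1 library, so that differences between conditions and between single cultures or pools cannot be told apart.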

Other observations

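Cluster 12 held 415 cells, all from the Ndrg2-KO culture, and no marker list named it. Its Cd274 stood at 182 CPM (173 to 191), its Pdcd1lg2 at 86.0 CPM (80.1 to 92.2), its Cd83 at 136 CPM (129 to 144) and its Tnfsf4 at 27.3 CPM (24.1 to 31.0). Each of these levels lay between those of the mature DC-like cells and of the monocyte or macrophage-like cells of the same culture.

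In the wounds, fibroblast-like cells held Tnfsf9 at 23.1 CPM (20.6 to 25.7) with control DCs, 46.1 CPM (42.3 to 50.2) with Ndrg2-KO DCs and 26.6 CPM (23.2 to 30.3) with blank hydrogels, in the order of the whole wounds. The interval with Ndrg2-KO DCs did not overlap the others.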
